A study of Populus tomentosa with 15 samples.

Results

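*anti-3* is a suspension cell line of *Populus tomentosa* (Chinese white poplar) that carries an antisense copy of *PtomtAPX*, the mitochondrial ascorbate peroxidase, in the vector pBI121. It was compared with wild type (WT) suspension cells. The comparison rested on 6 of the 15 libraries of the series, 3 of untreated *anti-3* cells and 3 of untreated WT cells, chosen by their labels. Both kinds of cells were kept in the dark at 25 °C with shaking and taken 5 days after subculture. All 3 *anti-3* libraries came from 1 transgenic line, and the labels do not say whether the libraries of a group came from separate cultures. The p-values therefore measure the spread between these libraries, which may be technical, and an effect of the antisense RNA cannot be told apart from a property of this line. Other libraries of the series were used only beside the genes named in the text, namely 3 of *anti-3*-A, which are *anti-3* cells kept with ascorbate (AsA, 1 mM) for 3 h, and 3 of untreated cells that overexpress *PtomtAPX* (*OX*). According to the paper, *OX* cells needed added cytokinin to grow. It does not say whether the cells of these libraries had it.

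Ascorbate peroxidase (APX) reduces H2O2 to water with ascorbate as the electron donor, and the oxidised ascorbate is restored through glutathione in the ascorbate-glutathione cycle. In mitochondria, H2O2 arises from electrons that leak out of the respiratory chain. H2O2 also acts as a signal in plant cells, and genes for glutathione transferases, glycosyltransferases and heat shock proteins are textbook responders to oxidative stress. No identifier of the table could be matched to *PtomtAPX*, and the targeted gene, which would check the labels, is therefore not analysed here. Markers that define a suspension cell were not fixed for the same reason.

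The table gives FPKM, fragments scaled by gene length and library total, for 42635 features. Of these, 33134 were above 0 in at least 1 of the 6 libraries, and 23060 reached 1 FPKM in at least 3 of the 6 and were tested. The other 10074 stayed below that filter. Library totals, worked back from the steps of 1 read in the FPKM values, were 17041314 to 20696382 reads in *anti-3* and 19517849 to 21278437 reads in WT. Replicates correlated at 0.9929 to 0.9939 across genes on the log2(FPKM + 1) scale. Differences in expression were tested with limma on that scale, on which weakly expressed genes show a smaller change than their ratio. Genes were called differentially expressed (DEGs) where p, adjusted by the Benjamini-Hochberg method, was below 0.001 and the log2 fold change (*anti-3* minus WT) was beyond 1.5 in either direction. The study's methods give this cutoff as a log2 ratio, while its results give it as a fold change. Read the second way, at a fold change above 1.5, 3360 genes were raised and 5999 lowered, so that 35.9% of 9359 DEGs were raised.

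In *anti-3*, 1379 genes were raised and 646 lowered compared to the WT, which is 5.98% and 2.8% of the genes tested and 8.78% in all. Raised genes changed by more than lowered ones. The median log2 fold change was 2.18 among the raised DEGs and -1.78 among the lowered. A log2 fold change beyond 3 was reached by 343 raised DEGs and by 11 lowered ones, and beyond 5 by 56 raised DEGs and by 0 lowered ones. In all 2025 DEGs the 3 *anti-3* libraries lay on one side of the 3 WT libraries, as they did in 79.2% of all tested genes, so that this separation by itself does not mark a DEG. The median standard error over DEGs was 0.09.

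Most of the smaller changes were decreases. At an adjusted p below 0.001 and any fold, 4060 genes (17.6%) were higher and 8303 (36%) lower in *anti-3*. The median log2 fold change of all 23060 genes was -0.28, a ratio of 0.826. With the medians of the libraries aligned, 1621 genes were raised and 430 lowered, so that the share of raised genes among DEGs was 79% in place of 68.1%. Gene length also moved with the outcome. The median length was 1198 bp in raised DEGs and 1240 bp in lowered DEGs, against 1414 bp in all tested genes, and with each library's trend on length removed 1810 genes were raised and 336 lowered.

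**Figure D1:**
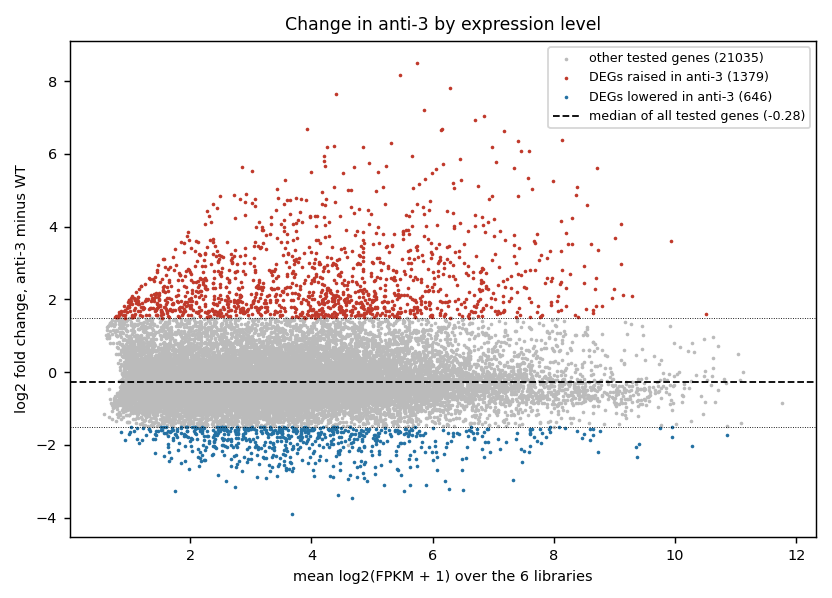
Each point is 1 of 23060 tested genes, with the mean log2(FPKM + 1) over the 6 libraries on the x axis and the log2 fold change (*anti-3* minus WT) on the y axis; dotted lines mark 1.5 and -1.5. Raised DEGs (1379, red) reach above 8, lowered DEGs (646, blue) stop at -3.90, and the bulk of the genes lies around the dashed median of -0.28.

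The largest rises and falls over all genes set the range of the comparison. POPTR_0012s02930, which carries no annotation here, had 1021, 1023 and 989 FPKM in *anti-3*, against 1.92, 1.56 and 1.95 FPKM in WT. Its log2 fold change was 8.49 ± 0.06 (SE, adjusted p = 8.6e-13). POPTR_1310s00210, also without annotation, had 720.4, 785 and 736 FPKM in *anti-3*, against 0.739, 1.97 and 2.36 FPKM in WT. Both were near the floor in WT, where they rested on 112 and 49 reads over the 3 libraries. Among lowered genes, POPTR_0014s08130 had 3.07, 2.23 and 1.76 FPKM in *anti-3*, against 50.2, 45 and 50.6 FPKM in WT. The study's GO terms for POPTR_0014s08130 are cutin biosynthesis and glycerol-3-phosphate 2-O-acyltransferase, an enzyme that adds a fatty acyl chain to glycerol phosphate on the way to cutin. In its text on *OX*, the paper instead calls this gene a phosphatase. POPTR_0005s01490, a membrane component, had 7.42, 7.26 and 5.56 FPKM in *anti-3*, against 96.7, 77.5 and 76.3 FPKM in WT, a log2 fold change of -3.45 ± 0.12 (SE, adjusted p = 6.3e-09). In none of these 4 genes did the groups overlap, which was a condition for naming them.

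Shares of the summed FPKM are given here for DEGs, which were chosen by their change in these same libraries. The direction of each difference was therefore set by that choice, and only its size is described. Raised DEGs held 21.8%, 22% and 22.5% of the summed FPKM in the 3 *anti-3* libraries, against 2.78%, 2.97% and 2.93% in the 3 WT libraries. Lowered DEGs held 1.85%, 1.84% and 1.78% in *anti-3*, against 6.95%, 6.74% and 6.84% in WT. The 100 most abundant genes were a different set in the 2 groups, since 46 genes were shared. Of the 100 in *anti-3*, 42 were raised DEGs and 1 was lowered, and of the 100 in WT, 0 were raised and 9 lowered. Ranking by the level in 1 group favours genes that are higher in that group, so the direction of this contrast follows from the ranking. By level in WT, raised DEGs were 34.6% of the 769 genes below 1 FPKM, 5.5% of those from 1 to 10, 4.77% of those from 10 to 100 and 2.81% of those at 100 or more. For genes below 1 FPKM in WT this share follows from the filter, which they passed mainly through the *anti-3* libraries. Lowered DEGs were 1.24% of genes from 1 to 10 FPKM in WT, 4.08% of those from 10 to 100 and 6.98% of those at 100 or more. FPKM is a share of each library, so a rise of some genes lowers the values of all others, and fewer cells of a kind cannot be told apart from less RNA per cell.

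**Figure D2:**
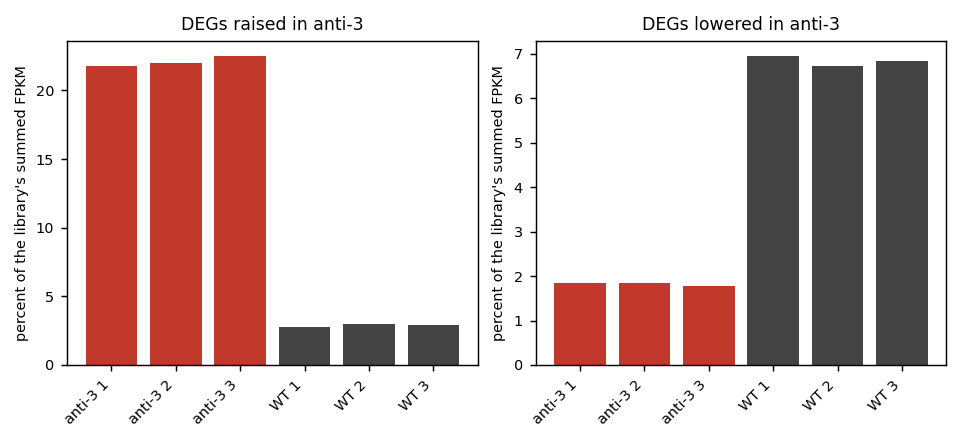
Bars give the percent of each library's summed FPKM held by the 1379 raised DEGs (left) and the 646 lowered DEGs (right), with the *anti-3* libraries in red and the WT libraries in dark grey. Raised DEGs hold 21.8% to 22.5% in *anti-3* and 2.78% to 2.97% in WT. The DEGs were chosen on these libraries, so the direction in both panels was set by the choice.

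The same genes were then read by function. Functions come from the GO terms in the study's supplementary data, from which 25 lists with 494 genes were formed, and 395 of these genes passed the filter. Genes listed for *anti-3* had been chosen by the study on its DEGs in these same libraries, so their counts are no independent evidence of a direction, and are given here to show which genes moved and by how much. The lists for trehalose, calcium-transporting ATPases, calmodulin binding, sulfate, malate and phosphate transport, galactinol-type galactosyltransferases, gibberellin and salicylic acid consist wholly of such genes. The lists for the respiratory chain, iron-sulfur clusters and chitinase hold only genes taken from the study's terms for *OX*, which were chosen on *OX* libraries against the same WT libraries. Because WT is shared, counts of genes listed for *OX* are no independent evidence of a direction either. The remaining lists hold both kinds. Listed for *OX* only refers to the terms of the list at hand, and a few such genes were listed for *anti-3* under another list. Long terms are listed in part, so that the counts are of listed genes and not of whole families. Genes named by rule from the lists had to be DEGs whose libraries do not overlap between the groups. Their separation was therefore set by the choice and is given as a description. In the text below, raised and lowered refer to DEGs, beside the 5.98% and 2.8% of all tested genes, and a list's median log2 fold change stands beside the -0.28 of all tested genes. Counts at an adjusted p below 0.001 and any fold stand beside 17.6% higher and 36% lower of all tested genes.

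**Figure D3:**
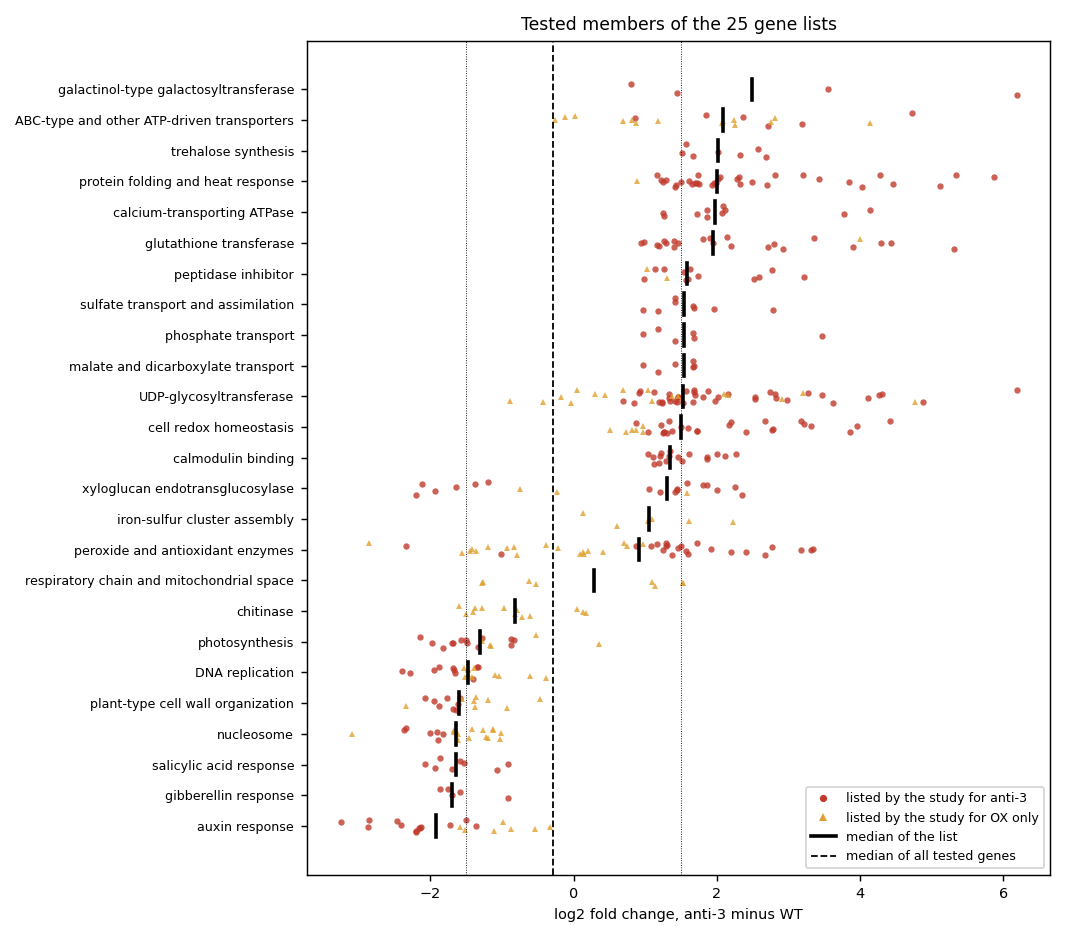
Points are the tested members of each of the 25 gene lists, with the log2 fold change (*anti-3* minus WT) on the x axis; circles were listed by the study for *anti-3* and triangles for *OX* only. Thick bars are list medians, from 2.49 (galactinol-type galactosyltransferase) to -1.92 (auxin response), and the dashed line is the median of all tested genes, -0.28.

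Glutathione transferases, which couple glutathione to reactive compounds, rose together. Of 23 tested members (24 listed), 14 were raised and 0 lowered, with a median log2 fold change of 1.94. The other 9 also had an adjusted p below 0.001, with log2 fold changes of at least 0.95. POPTR_0256s00210 had 365, 359 and 382 FPKM in *anti-3*, against 8.79, 7.11 and 9.28 FPKM in WT (log2 fold change 5.31, SE 0.08, adjusted p = 4.1e-11). Its neighbour by identifier, POPTR_0256s00200, was the most abundant member and had 1289, 1343 and 1432 FPKM in *anti-3*, against 112, 139 and 145 FPKM in WT. POPTR_0001s42820 had 233, 239 and 226 FPKM in *anti-3*, against 9.69, 10.2 and 9.6 FPKM in WT. The groups were far apart in each of these genes. The summed level of the list was 6206, 6155 and 6468 FPKM in *anti-3*, against 1160.1, 1278 and 1283 FPKM in WT, a ratio of 5.06.

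Genes of thiol redox balance and of sulfate assimilation were higher as well. In the list for cell redox homeostasis (31 tested of 35), 15 were raised and 0 lowered, all 15 among the 25 tested genes listed for *anti-3*. The 6 tested genes listed for *OX* only had log2 fold changes of 0.51 to 0.98. POPTR_0004s01190 and POPTR_0004s01220 carry the term phosphoadenylyl-sulfate reductase (thioredoxin), a reducing step of sulfate assimilation. POPTR_0004s01190 had 335, 328 and 299 FPKM in *anti-3*, against 20.6, 19 and 19.4 FPKM in WT. In POPTR_0004s01220 the values were 529, 537 and 509 FPKM in *anti-3*, against 30.6, 37.8 and 37.3 FPKM in WT. POPTR_0011s05780, an oxidoreductase of sulfur groups, had 62.6, 64.6 and 63.2 FPKM in *anti-3*, against 1.57, 1.95 and 2.66 FPKM in WT (log2 fold change 4.41, SE 0.11, adjusted p = 1.2e-09). In each of these genes the highest WT library stayed far below the lowest *anti-3* library. The most abundant member, POPTR_0005s25420, with a mean of 1490.4 FPKM in *anti-3* and 621 FPKM in WT, held 40.9% of the summed level in *anti-3* and stayed below the fold threshold (log2 fold change 1.26). It was named after its values were seen.

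Sulfate transport and assimilation had 8 tested genes of 10, of which 4 were raised and 0 lowered, with a median of 1.54. POPTR_0008s15880 carries the terms sulfate adenylyltransferase and adenylylsulfate kinase, which activate sulfate with ATP. It had 308, 291 and 302 FPKM in *anti-3*, against 70.9, 72.2 and 86.7 FPKM in WT and made up 72.5% of the list's summed level in *anti-3*. POPTR_0002s09310, a sulfate transporter, had 26.9, 21.6 and 28.6 FPKM in *anti-3*, against 2.39, 3.54 and 2.72 FPKM in WT (log2 fold change 2.78, SE 0.13, adjusted p = 6.2e-08). Both genes were higher in all 3 *anti-3* libraries than in any WT library. Each pair of the lists for sulfate, phosphate and malate transport shares 6 genes, so that their counts are not separate. Malate and dicarboxylate transport had 3 raised genes of 6 tested, and its POPTR_0007s03520 had 5.63, 5.09 and 5.44 FPKM in *anti-3*, against 0.832, 1.36 and 0.846 FPKM in WT. Of phosphate transport, 3 of 6 tested were raised, and POPTR_0015s11570 had 25.7, 28.4 and 25.5 FPKM in *anti-3*, against 1.09, 1.45 and 1.96 FPKM in WT.

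Peroxide and antioxidant enzymes, the class to which ascorbate peroxidases belong, were split. The paper reports no significant change in *anti-3* for the H2O2-scavenging enzymes it considered, APX genes included. The terms do not say which listed genes it counted among those enzymes, so that statement was not tested here. Of 42 tested members of this list (60 listed), 11 were raised and 3 lowered. Of the listed genes, 12 are also on the list for cell redox homeostasis and 6 on that for plant-type cell wall organization. The 23 tested genes listed for *anti-3* had 11 raised and 1 lowered and a median of 1.5, while the 19 listed for *OX* only had 0 raised and 2 lowered and a median of -0.38. POPTR_0001s09270, a peroxidase by its terms, had 886, 848 and 906 FPKM in *anti-3*, against 85.6, 88.6 and 83.9 FPKM in WT (log2 fold change 3.34, SE 0.04, adjusted p = 1.1e-11). POPTR_0010s06960, annotated as a thioredoxin-disulfide reductase, had 131, 125 and 109 FPKM in *anti-3*, against 10.7, 11.4 and 11.8 FPKM in WT. POPTR_0006s13190 was lowered, and it carries the terms for heme binding, H2O2 catabolism and the cell wall. In POPTR_0006s13190 the values were 30.9, 30 and 26.3 FPKM in *anti-3*, against 129, 165 and 160.4 FPKM in WT. Although more members were raised, the summed level was lower in *anti-3*, with 3669.8, 3729 and 3621 FPKM in *anti-3*, against 4585, 4517 and 4538 FPKM in WT (ratio 0.808). The most abundant member, POPTR_0013s08130, averaged 1086 FPKM in *anti-3* and 1926 in WT, a log2 fold change of -0.83 that is below the fold threshold, and it too was named after its values were seen.

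Genes of protein folding and the heat response had the highest summed level of the lists in *anti-3*, though not in WT. All 34 listed genes were tested, 27 were raised and 0 lowered, and the median log2 fold change was 2. The 27 were all among the 33 genes listed for *anti-3*. POPTR_0013s09600, with the term response to heat, had 681, 651 and 673 FPKM in *anti-3*, against 11.3, 10.6 and 9.54 FPKM in WT (log2 fold change 5.87, SE 0.06, adjusted p = 2.9e-12). POPTR_0001s35990, with the same term, had 1176, 1221 and 1236 FPKM in *anti-3*, against 28.1, 30.4 and 28.5 FPKM in WT. Both genes were already expressed in WT, and no WT library came near the *anti-3* range. POPTR_0001s13750, annotated to the unfolded protein response of the endoplasmic reticulum, was the most abundant member and changed less, with 2425, 2791 and 2424 FPKM in *anti-3*, against 851, 858 and 782 FPKM in WT (log2 fold change 1.61, SE 0.06, adjusted p = 1.5e-08). The summed level of the list was 12850.5, 13411 and 12972 FPKM in *anti-3*, against 2502, 2541 and 2450.0 FPKM in WT, a ratio of 5.24.

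UDP-glycosyltransferases (UGTs) move a sugar from a UDP-sugar to hormones, flavonoids and other small molecules. Of 59 tested members (90 listed), 31 were raised and 0 lowered. The 41 tested genes listed for *anti-3* had 25 raised and a median of 1.69, and the 18 listed for *OX* only had 6 raised and a median of 1.06. POPTR_0006s05450, a quercetin glucosyltransferase by its terms, had 34.3, 31.8 and 38.5 FPKM in *anti-3*, against 0.179, 0.195 and 0.273 FPKM in WT, and rested on 22 reads in the WT libraries. POPTR_0001s31040, with the same terms, was the most abundant member at 467, 538 and 476 FPKM in *anti-3*, against 21.7, 24.6 and 28.1 FPKM in WT (log2 fold change 4.27, SE 0.09, adjusted p = 2.5e-10). No library of one group reached into the range of the other in these genes. POPTR_0014s11210 carries the term inositol 3-alpha-galactosyltransferase, the activity of galactinol synthase, which opens the way to the raffinose sugars. It had 155, 170.3 and 162 FPKM in *anti-3*, against 1.05, 1.55 and 1.17 FPKM in WT (log2 fold change 6.18, SE 0.09, adjusted p = 2.2e-11). A second gene with that term, POPTR_0002s19230, had 210.2, 214 and 216 FPKM in *anti-3*, against 17, 18.5 and 16.5 FPKM in WT. Together the 4 tested genes of the galactinol-type list summed to 374, 395 and 386 FPKM in *anti-3*, against 20.2, 23.5 and 20.5 FPKM in WT, a ratio of 18, although only 2 of the 4 were DEGs.

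Trehalose is a further stress-related sugar of plants, made through trehalose phosphate. All 7 tested genes of the trehalose list (8 listed, all chosen by the study as changed in *anti-3*) were raised, with log2 fold changes of 1.52 to 2.69. POPTR_0015s14810, a trehalose phosphatase by its terms, had 13.5, 12.3 and 14 FPKM in *anti-3*, against 1.25, 1.01 and 1.37 FPKM in WT. POPTR_0012s14700 had 38, 39.4 and 39.9 FPKM in *anti-3*, against 5.12, 6.02 and 6 FPKM in WT. The smallest change was that of the most abundant member, POPTR_0003s11190, with 53.7, 53.4 and 55.8 FPKM in *anti-3*, against 17.5, 20.7 and 16.9 FPKM in WT. Its log2 fold change of 1.52 was 1.49 without WT replicate 1 and 1.47 without WT replicate 3, below the threshold.

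Calcium pumps remove Ca2+ from the cytosol after a signal, and calmodulin reads that signal. Of 10 tested calcium-transporting ATPases (11 listed), 8 were raised and 0 lowered, with a median of 1.97. POPTR_0010s09130 had 35.7, 35.5 and 36.4 FPKM in *anti-3*, against 1.16, 0.972 and 1.16 FPKM in WT (log2 fold change 4.14, SE 0.07, adjusted p = 1.0e-10). POPTR_0008s15890 had 94.5, 94 and 102 FPKM in *anti-3*, against 5.23, 6.93 and 6.29 FPKM in WT. Both pumps were low in all WT libraries. Calmodulin-binding proteins, of which 3 are also on the list of calcium pumps, had 7 raised and 0 lowered of 17 tested, and the other 10 had an adjusted p below 0.001 with log2 fold changes of at least 1.04. POPTR_0004s04960 had 38, 36.9 and 41.5 FPKM in *anti-3*, against 6.63, 7.62 and 7.56 FPKM in WT.

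ABC-type transporters export conjugated compounds and hormones. The list for these and other ATP-driven transporters had 12 raised and 0 lowered of 20 tested (40 listed). It shares 4 genes with the list of calcium pumps, so that the counts are not separate. POPTR_0001s05650, POPTR_0005s23710 and POPTR_0010s09130 were raised and are on both lists. POPTR_0003s18140, with terms for abscisic acid transport and defense, had 61.8, 61.5 and 60.7 FPKM in *anti-3*, against 1.33, 1.42 and 1.34 FPKM in WT (log2 fold change 4.72, SE 0.06, adjusted p = 1.6e-11). POPTR_0012s07160 was the most abundant raised member, with 135, 131 and 134 FPKM in *anti-3*, against 25.3, 28.5 and 27.7 FPKM in WT. Of peptidase inhibitors, which block proteases, 8 were raised and 0 lowered of 14 tested. POPTR_0010s08640 of that list had 21.3, 18.8 and 25.5 FPKM in *anti-3*, against 2.89, 0.568 and 1.39 FPKM in WT, a wide spread in WT over 32 reads, and a log2 fold change of 3.22 ± 0.27 (SE, adjusted p = 3.8e-06). POPTR_0019s02560 was more even, with 175, 163 and 194 FPKM in *anti-3*, against 23.4, 26.1 and 26 FPKM in WT.

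Lists that touch the mitochondrion were taken from the study's terms for *OX*, and the respiratory list shares 2 genes with the photosynthesis list, under which POPTR_0028s00410 was also listed for *anti-3*. Of 8 genes for the respiratory chain and the mitochondrial intermembrane space, 2 were raised and 0 lowered, with log2 fold changes from -1.28 to 1.53 and a median of 0.29. The 2 raised genes carry the terms for electron transport from cytochrome c to oxygen. POPTR_0019s10470 had 149, 154 and 151 FPKM in *anti-3*, against 54.4, 52.9 and 47.9 FPKM in WT. POPTR_1028s00200 had 47.2, 47.8 and 50.8 FPKM in *anti-3*, against 16.8, 16.2 and 15.9 FPKM in WT. Both lay close to the threshold, at 1.53 and 1.52, and were lost when 1 library was left out, at 1.48 for POPTR_0019s10470 without WT replicate 3 and at 1.49 for POPTR_1028s00200 without *anti-3* replicate 3. Iron-sulfur cluster assembly, which supplies the cofactors of the respiratory complexes, had 2 raised and 0 lowered of 7. At an adjusted p below 0.001, 6 of the 7 were higher, against 17.6% of all tested genes, though the 7 were chosen against the same WT libraries. POPTR_0022s00770 of this list had 138, 128 and 148 FPKM in *anti-3*, against 26.2, 29.9 and 30.3 FPKM in WT (log2 fold change 2.22, SE 0.07, adjusted p = 4.3e-09). POPTR_0001s01820 had 70.4, 71.1 and 66.9 FPKM in *anti-3*, against 21, 24.2 and 21.1 FPKM in WT.

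**Figure D4:**
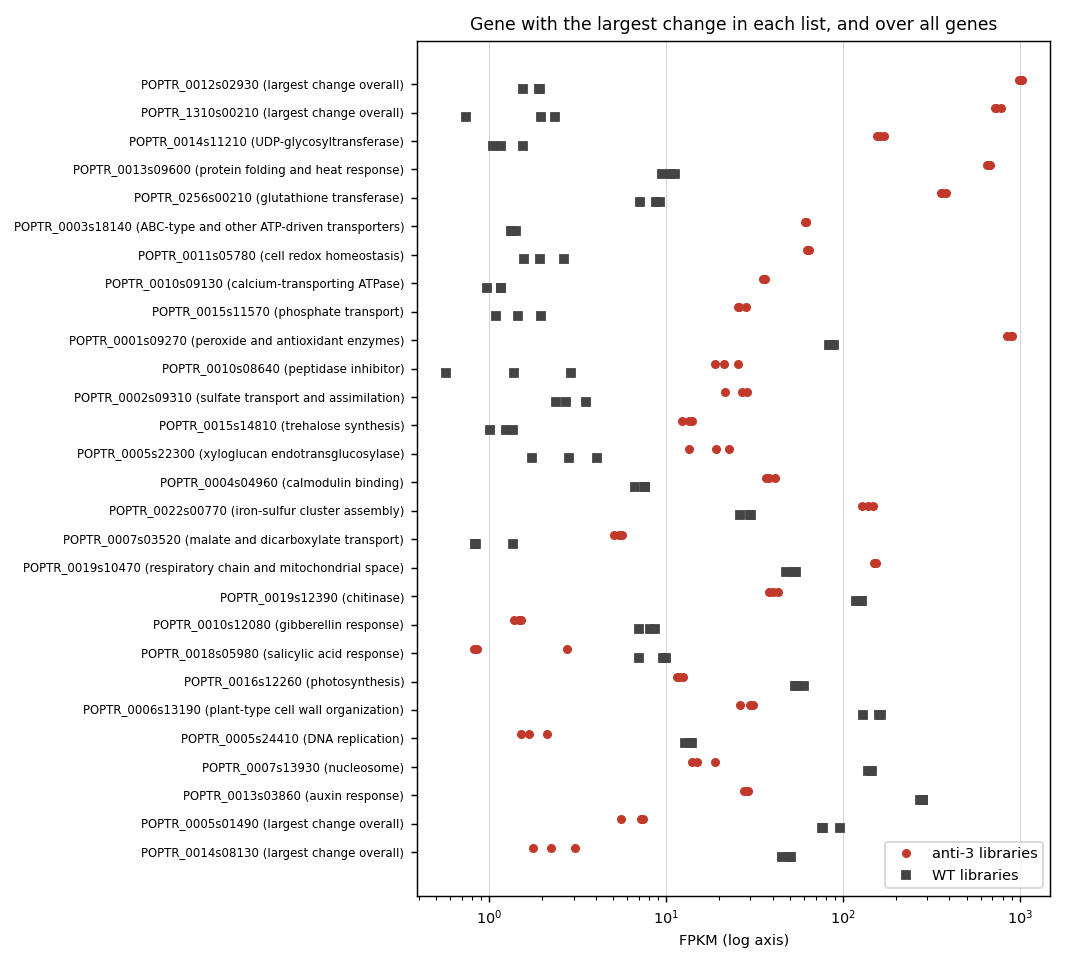
FPKM on a log axis in each of the 3 *anti-3* libraries (red circles) and the 3 WT libraries (dark squares), for the named gene with the largest change in each list and for the 2 largest rises and 2 largest falls over all genes. Only genes whose groups do not overlap were eligible, so the groups stand apart in every row. The largest rise is POPTR_0012s02930, at 989 to 1023 FPKM in *anti-3* and 1.56 to 1.95 in WT. The largest fall is POPTR_0014s08130, at 1.76 to 3.07 in *anti-3* and 45 to 50.6 in WT.

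Among the lowered lists, auxin response had the lowest median. Auxin is the hormone of cell expansion and division, on which plant cell cultures depend. Of 20 tested members (23 listed), 13 were lowered and 0 raised, and the median was -1.92. Of these, 11 were among the 13 genes listed for *anti-3* and 2 among the 7 listed for *OX* only. POPTR_0013s03860, annotated to auxin signalling and the regulation of RNA synthesis, had 29.1, 28.6 and 27.7 FPKM in *anti-3*, against 283, 283 and 273 FPKM in WT (log2 fold change -3.25, SE 0.04, adjusted p = 1.3e-11). POPTR_0006s06550, with similar terms, had 3.18, 2.8 and 2.98 FPKM in *anti-3*, against 28.8, 25 and 30.3 FPKM in WT. No *anti-3* library of this gene came above 3.18 FPKM. The summed level of the list was 182, 178 and 177 FPKM in *anti-3*, against 859, 819.9 and 824 FPKM in WT, a ratio of 0.214.

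Other hormone lists were short. Gibberellin response had 4 lowered and 0 raised of 5, and salicylic acid response 6 lowered and 0 raised of 8, with 4 genes shared between the lists. POPTR_0010s12080, which carries terms for both hormones, had 1.38, 1.52 and 1.47 FPKM in *anti-3*, against 8.65, 7.01 and 8.14 FPKM in WT. POPTR_0013s02980, with terms for gibberellin signalling, had 13, 12 and 12.6 FPKM in *anti-3*, against 45.1, 43.1 and 45.3 FPKM in WT (log2 fold change -1.75, SE 0.05, adjusted p = 3.9e-09, and -1.48 with the length trend removed). POPTR_0005s14640, annotated to the response to salicylic acid and to plasmodesmata, had 51.4, 68.2 and 63.5 FPKM in *anti-3*, against 247, 243 and 213 FPKM in WT. POPTR_0018s05980 was uneven in *anti-3*, with 2.74, 0.857 and 0.823 FPKM in *anti-3*, against 6.99, 9.61 and 9.97 FPKM in WT, over 34 reads in *anti-3*, and had a log2 fold change of -2.07 ± 0.26 (SE, adjusted p = 5.8e-05).

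Genes of DNA replication and of the nucleosome, which mark cells that copy their DNA, were lower. Of 21 tested replication genes, 9 were lowered and 0 raised, and 20 were lower at an adjusted p below 0.001, against 36% of all tested genes. POPTR_0005s24410, annotated to the replication checkpoint, had 1.69, 2.13 and 1.52 FPKM in *anti-3*, against 13.8, 14.1 and 12.8 FPKM in WT (log2 fold change -2.39, SE 0.10, adjusted p = 2.9e-08). POPTR_0002s04120, with the same term, had 0.955, 1.62 and 1.45 FPKM in *anti-3*, against 10.2, 10.7 and 9.91 FPKM in WT. POPTR_0004s13660, of the MCM complex that opens the DNA helix, had 6.57, 6.39 and 5.3 FPKM in *anti-3*, against 20, 19.5 and 18.6 FPKM in WT. Its log2 fold change of -1.53 was -1.36 with library medians aligned and -1.44 without *anti-3* replicate 3, both short of the threshold. Of 22 nucleosome genes, 12 were lowered and 0 raised, 5 of the 6 listed for *anti-3* and 7 of the 16 listed for *OX* only. POPTR_0007s13930 had 18.8, 14 and 15 FPKM in *anti-3*, against 139, 144 and 145 FPKM in WT (log2 fold change -3.10, SE 0.09, adjusted p = 2.6e-09). POPTR_0002s04410 had 37.2, 39.7 and 44.4 FPKM in *anti-3*, against 214, 217 and 205 FPKM in WT. The most abundant lowered member, POPTR_0006s08230, had 249, 260.0 and 234 FPKM in *anti-3*, against 754, 759.7 and 759 FPKM in WT. Its log2 fold change of -1.61 became -1.45 with medians aligned. The summed level of the nucleosome list was 879, 912 and 845 FPKM in *anti-3*, against 2895, 3095 and 2925 FPKM in WT.

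Cell wall lists gave a mixed picture. In plant-type cell wall organization, 10 of 16 tested genes were lowered and 0 raised. All 16 were lower at an adjusted p below 0.001, against 36% of all tested genes. The 8 tested genes listed for *anti-3* were all lowered. This list shares 6 genes with that of peroxide and antioxidant enzymes, so that their counts are not separate. The lowered POPTR_0005s21740 and POPTR_0006s13190 are on both. POPTR_0010s21000 had 36.7, 32.6 and 37.5 FPKM in *anti-3*, against 163, 141 and 153 FPKM in WT (log2 fold change -2.07, SE 0.07, adjusted p = 6.3e-09). POPTR_0005s21740, which also carries terms for H2O2 catabolism, had 224, 236 and 216 FPKM in *anti-3*, against 679, 640.2 and 669 FPKM in WT. Its log2 fold change was -1.55, and -1.39 with medians aligned. Xyloglucan endotransglucosylases, which cut and rejoin the xyloglucan chains of the wall, went both ways, with 7 raised and 4 lowered of 20 tested. POPTR_0018s10300 was raised, with 6.9, 7.2 and 5.93 FPKM in *anti-3*, against 0.622, 0.58 and 0.593 FPKM in WT. POPTR_0005s22300 was raised as well, with 22.8, 19.1 and 13.5 FPKM in *anti-3*, against 2.81, 4.06 and 1.74 FPKM in WT. POPTR_0013s14860 was lowered, with 64.9, 69.5 and 61.1 FPKM in *anti-3*, against 285, 297 and 276 FPKM in WT (log2 fold change -2.12, SE 0.05, adjusted p = 1.0e-09). The lowered POPTR_0013s14860 was the most abundant in WT, and the summed level was 495, 530.0 and 496 FPKM in *anti-3*, against 648, 657 and 617 FPKM in WT. Chitinases, all 13 listed for *OX* only, had 1 lowered gene, POPTR_0019s12390, with 40.4, 43.1 and 38 FPKM in *anti-3*, against 119, 128 and 126 FPKM in WT (log2 fold change -1.60, and -1.43 with medians aligned). Of the 13, 9 were lower at an adjusted p below 0.001, against 36% of all tested genes, though the 13 were chosen against the same WT libraries.

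Genes of photosynthesis were detected in these dark-grown cells, and most of those tested were lower in *anti-3*. Of 18 tested (22 listed), 7 were lowered and 0 raised, with a median of -1.30. POPTR_0016s12260, which by its terms binds chlorophyll for light harvesting, had 11.8, 12.4 and 11.5 FPKM in *anti-3*, against 59.9, 53.3 and 55 FPKM in WT (log2 fold change -2.15, SE 0.06, adjusted p = 2.0e-09). POPTR_0001s47590, of photosystem I, had 5.04, 4.11 and 3.59 FPKM in *anti-3*, against 23.6, 16.2 and 19.3 FPKM in WT. All 7 DEGs were among the 13 genes listed for *anti-3*. The 18 genes together reached 59.3, 54.9 and 52.7 FPKM in *anti-3*, against 186, 202 and 204 FPKM in WT.

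The 9 genes that the study names for the phenotype of *anti-3* were lower in every *anti-3* library than in any WT library. They were picked by the study on these libraries, so their direction is a description. Of the 9, 7 were DEGs. Inorganic pyrophosphatase (POPTR_0005s01840), which splits pyrophosphate and so drives biosynthesis, had 13.6, 13.5 and 14.7 FPKM in *anti-3*, against 57.9, 40.1 and 53.1 FPKM in WT (log2 fold change -1.76, SE 0.12, adjusted p = 6.5e-07). The WT libraries spread by more than the *anti-3* libraries here. Phosphatidylinositol-4-phosphate 5-kinase (POPTR_0005s15850), an enzyme of membrane signalling and the cytoskeleton, had 12.3, 10.4 and 12.1 FPKM in *anti-3*, against 89.2, 81.3 and 89.8 FPKM in WT. The cytokinin riboside 5′-monophosphate phosphoribohydrolase (POPTR_0004s22210), which frees active cytokinin, had 9.5, 6.76 and 7.27 FPKM in *anti-3*, against 68.1, 64.6 and 64.9 FPKM in WT and the largest change of the 9 (log2 fold change -2.93, SE 0.10, adjusted p = 7.9e-09). Alkaline α-galactosidase (POPTR_0016s05500), which removes galactose from raffinose sugars, had 10.2, 9 and 10.1 FPKM in *anti-3*, against 40.6, 35.7 and 37.4 FPKM in WT. The phosphatase family gene (POPTR_0007s09470) had 0.722, 0.55 and 1.02 FPKM in *anti-3*, against 3.28, 2.86 and 2.58 FPKM in WT, a log2 fold change of -1.15 ± 0.13 (SE, adjusted p = 3.3e-05) that stays below the fold threshold with a pseudocount of 1 and passes it at -1.83 with a pseudocount of 0.1.

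Of the 4 UGTs named by the study, which it ties to dividing cells, 3 were lowered, while the UGT list above held 31 raised and 0 lowered genes. POPTR_0001s05400 had 8.74, 6.68 and 8.1 FPKM in *anti-3*, against 57, 54.5 and 54.4 FPKM in WT (log2 fold change -2.68, SE 0.09, adjusted p = 4.4e-09). POPTR_0009s15190 had 6.69, 6.19 and 6.68 FPKM in *anti-3*, against 29.3, 25.4 and 23.1 FPKM in WT. POPTR_0006s02390 had 1.19, 1.18 and 0.737 FPKM in *anti-3*, against 6.49, 5.34 and 5.75 FPKM in WT (log2 fold change -1.76, and -1.49 with the length trend removed). In these 3 genes the WT level was at least 3 times the *anti-3* level in every pair of libraries. POPTR_0545s00210 had 0.527, 0.784 and 1.26 FPKM in *anti-3*, against 3.19, 3.3 and 3.89 FPKM in WT and a log2 fold change of -1.28 ± 0.15 (SE, adjusted p = 4.1e-05), which passes the fold threshold at -1.96 with a pseudocount of 0.1. None of the 4 is on the UGT list, so that the family as annotated by the study held both raised and lowered members.

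**Figure D5:**
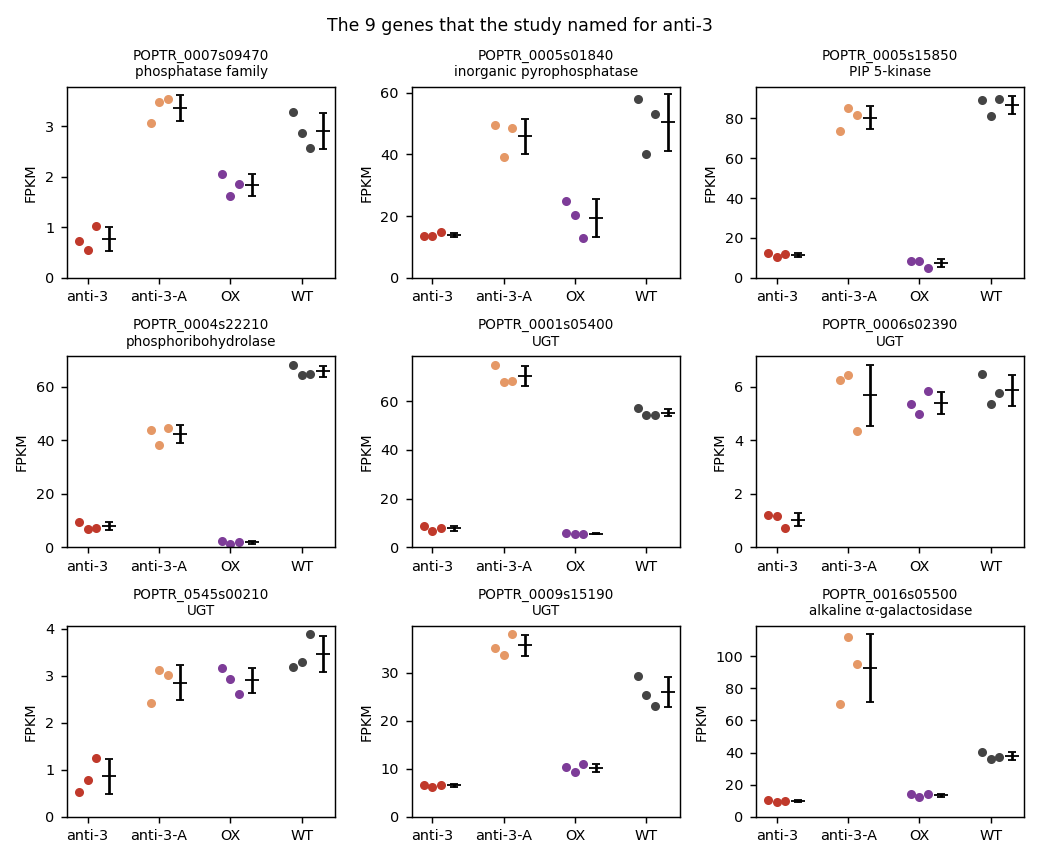
FPKM of the 9 genes named by the study in each library of *anti-3*, *anti-3*-A, *OX* and WT, from left to right (points), with the mean and SD of 3 libraries beside them (bar). *anti-3* is below WT in all 9 panels; *anti-3*-A is above *anti-3* in all 9, and *OX* lies below *anti-3* in POPTR_0005s15850, POPTR_0004s22210 and POPTR_0001s05400.

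Levels in 2 other groups were set beside those of *anti-3* for the named genes, in 1 fit of all 15 libraries. AsA is the electron donor of APX. In *anti-3*-A the inorganic pyrophosphatase POPTR_0005s01840 averaged 45.9 ± 5.7 FPKM (SD, n = 3), and *anti-3* was lower than *anti-3*-A by a log2 difference of -1.64 (adjusted p = 3.2e-07). For the phosphoribohydrolase POPTR_0004s22210 the difference between *anti-3* and *anti-3*-A was -2.30, and for the auxin gene POPTR_0013s03860 it was -3.24. The raised genes differed the other way, with 6.94 for the heat-response gene POPTR_0013s09600 and 4.66 for the glutathione transferase POPTR_0256s00210. Not every named gene differed between treated and untreated *anti-3* cells. POPTR_0014s08130 averaged 2.35 ± 0.663 FPKM in untreated *anti-3* cells, against 2.18 ± 0.345 FPKM after AsA, a log2 difference of 0.07 (adjusted p = 0.65), and POPTR_0006s13190 averaged 29.1 ± 2.42 FPKM in untreated *anti-3* cells, against 28.3 ± 7.41 FPKM after AsA, a difference also of 0.07 (adjusted p = 0.69). A miss of the threshold does not show that these levels are alike. WT cells given AsA were not analysed here, so an effect of AsA by itself cannot be told apart from one on the antisense line.

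Between *anti-3* and *OX*, lines with opposite constructs, several named genes lay close together. If the *OX* cells had added cytokinin, its effect cannot be told apart from that of the construct. The heat-response gene POPTR_0001s35990 averaged 1211 ± 31.2 FPKM in *anti-3* and 1159 ± 118 in *OX*, a log2 difference of 0.07 (adjusted p = 0.53). POPTR_0013s09600 averaged 668 ± 15.7 FPKM in *anti-3*, against 592 ± 61.2 FPKM in *OX*, a difference of 0.18 (adjusted p = 0.38). Of the named glutathione transferases, POPTR_0256s00210 was higher in *anti-3* by 2.22 and POPTR_0001s42820 by 1.05. The UGT POPTR_0006s05450 was lower in *anti-3* than in *OX*, by a difference of -1.03 (adjusted p = 7.3e-08). POPTR_0010s21000 of the cell wall list was higher in *anti-3* than in *OX*, with 35.6 ± 2.66 FPKM in *anti-3*, against 5.61 ± 1.13 FPKM in *OX*. POPTR_0006s02390, one of the study's UGTs, was lower in *anti-3*, with 1.03 ± 0.258 FPKM in *anti-3* and 5.39 ± 0.428 FPKM in *OX*, a difference of -1.66. Whether the 2 lines share a response was not tested, because both are set against the same WT libraries.

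The most abundant annotated DEGs were read next. POPTR_0009s11920, an RNA-binding protein by its term, had 1049, 1032 and 947 FPKM in *anti-3*, against 3221, 3476 and 3457 FPKM in WT (log2 fold change -1.74, SE 0.05, adjusted p = 2.1e-09, and -1.43 with the length trend removed). POPTR_0010s15270, a glycosyl hydrolase anchored to the plasma membrane, had 522, 559 and 508 FPKM in *anti-3*, against 1792, 1802 and 1874 FPKM in WT. POPTR_0001s29560, an extracellular protein, had 345, 352 and 332 FPKM in *anti-3*, against 1359.6, 1303 and 1365 FPKM in WT. These 3 were lowered and were among the strongly expressed genes of both groups. POPTR_0001s03410, a nucleotide-binding protein, was raised, with 1898, 1943 and 2031 FPKM in *anti-3*, against 52.5, 58.5 and 58.2 FPKM in WT (log2 fold change 5.09, SE 0.05, adjusted p = 2.9e-12), on 286707 reads in *anti-3* and 8872 in WT.

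Raised genes often carried neighbouring identifiers. Identifiers with a number are ordered along scaffolds, and of 1324 raised DEGs with a next tested identifier on the same scaffold, 200 (15.1%) were followed by a raised DEG, while a raised DEG followed 5.92% of all 22334 tested genes with a neighbour. For lowered DEGs the share was 46 of 626 (7.35%), against 2.82%. Runs of 3 or more raised DEGs numbered 27 and held 95 genes, and runs of lowered DEGs numbered 5 with 18 genes. The runs named here were chosen after their values were seen. The 4 glutathione transferases from POPTR_0011s11420 to POPTR_0011s11450 rose by log2 fold changes of 2.80 to 4.30, and the last of them averaged 547 FPKM in *anti-3* and 77.8 in WT. Another run of 4, from POPTR_0013s10150 to POPTR_0013s10180 with terms for oxidation-reduction or coenzyme binding, rose by 4.65 to 6.08, and POPTR_0013s10150 averaged 1575 FPKM in *anti-3* and 22.3 in WT. The 4 genes with the term antioxidant activity from POPTR_0010s06960 to POPTR_0010s07000 rose by 1.59 to 3.31. Among lowered genes, a run of 6 from POPTR_0006s03540, an auxin efflux transporter by its terms, to POPTR_0006s03620 had log2 fold changes of -2.68 to -1.56. Neighbours of 1 family can be near-identical copies, and how the authors counted reads that map to several genes is not given in the sources used here, so the split of reads within such runs is uncertain.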

How the data were processed

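RNA-seq values of 6 libraries of suspension cells were compared, 3 each of *anti-3* and WT, with groups and replicate numbers from the sample labels. The authors mapped clean reads to the *P. trichocarpa* genome (the paper names SOAPaligner/SOAP2, the submitters' processing notes Bowtie2 2.2.3, TopHat2 2.0.12 and HTSeq 0.6.1) and deposited 1 FPKM value for each gene in each library, a unit named RPKM in the paper. The release, annotation and strand setting were not given in the sources. The authors' deposited tables of DEGs (group means of read counts, fold changes and p-values) were not used.

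Whole reads and gene lengths were worked back from the FPKM steps (Python 3.11.15 with pandas 2.3.3, scipy 1.17.1 and numpy 2.4.6). Of 445124 values above 0, 100% came out within 0.001 reads of a whole number. Chi-square per degree of freedom between replicates, on genes that had 20 or more reads summed over the pair, was 2.32 to 4.04, above sampling noise.

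Genes that reached 1 FPKM in 3 or more of the 6 libraries were tested with limma 3.58.1 (R 4.3.3), with an intensity trend, on log2(FPKM + 1), without further scaling or block, with Benjamini-Hochberg adjustment of p over all 23060 genes. The script was tested on simulated data. Comparisons of named genes with *anti-3*-A and *OX* came from 1 fit of all 15 libraries on the same genes. None of the identifiers matched the reference names, and functions are those given by the study. The 75 genes eligible by name were the 9 that the study names, the 2 largest changes and the most abundant DEG of each list, the 2 largest rises and falls over all genes, and the 5 most abundant annotated DEGs. For the lists and for the rises and falls, only DEGs whose libraries did not overlap between the groups were eligible. The text gives part of the eligible genes. The comparison, lists and rules were chosen with earlier results of these data known. Alternatives were other pseudocounts (0.1, 0.5), no filter, a filter at 5 FPKM, aligned medians, quantile normalization, all 15 libraries in the fit, limma without the trend, a replicate block, other thresholds, voom on whole reads, removal of the trend on gene length, and each library left out.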

Additional observations from a re-analysis of the deposited data

How the results depend on the processing

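Against 2025 DEGs (1379 raised, 646 lowered), the number of lowered DEGs moved to 430 with library medians aligned, 336 with the length trend removed, 1157 with a pseudocount of 0.1 and 1274 with voom on whole reads, which called 3076 DEGs in all. A fold change above 1.5 in place of a log2 fold change of 1.5 gave 9359 DEGs, 3360 raised and 5999 lowered, so that the share of raised DEGs was 35.9%. That share was 84.3% with the length trend removed, 74.1% after quantile normalization and 58.6% with voom. Leaving out 1 library gave 1992 to 2058 DEGs. Of the 2025 DEGs, 84.7% (length trend removed) to 100% (adjusted p below 0.05, among others) were called in the same direction under each of the 19 alternatives. The largest loss of named genes was 7 of 75, with the length trend removed, and no named gene changed direction. With the replicate number as a block 2023 genes were DEGs. Same-numbered libraries of the groups deviated from their group means with correlations of -0.017, -0.011 and 0.013, so that no deviation shared by number was seen. This cannot settle whether same-numbered samples were grown or handled together. With 3 libraries of 1 line a group, the error covers the spread between these libraries and not other antisense lines, and levels of under 1 FPKM rest on few reads.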

Other observations

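Of 257 tested features that the table lists outside the reference annotation, 12 were raised and 11 lowered. Of 76 tested features with non-coding RNA identifiers, 7 were raised and 4 lowered. These counts stand beside 5.98% raised and 2.8% lowered of all tested genes, and the rates were not tested against those of other genes. Among tested genes, 20 had no read in any WT library, of which 14 were DEGs, and 2 had none in any *anti-3* library, of which 1 was a DEG. Such genes passed the filter only through the other group. Their calls therefore largely follow from the filter and are given as a description. The 100 most abundant features held 16.2% to 16.4% of the summed FPKM in the *anti-3* libraries and 16.2% to 16.3% in the WT libraries, so that the concentration of RNA in few genes was close although the genes were not the same. A feature above 0 was found for 29880 to 30209 identifiers in *anti-3* libraries and for 29288 to 29491 in WT libraries.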
